A study of Mus musculus with 13 samples.

Results

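Otx2, Crx, Nrl, Nr2e3, Prdm1, Rorb, Mef2d, Samd7 and Esrrb are 9 genes for nuclear regulators through which a retinal progenitor's daughter becomes and stays a photoreceptor. They were picked by symbol from the gene name column of the study's comparison table, which lists 35734 genes, and all 9 were found, joined to transcripts and tested among 15550 genes. The RNA-seq arm held 4 control and 4 Ikzf1 libraries. The cells were retinal cells of CD1 mice at postnatal day 0, dissociated, transfected, kept in culture for 9 h and sorted for green fluorescent protein (GFP). The control condition was GFP and the other was Ikzf1-IRES-GFP, in which 1 transcript carries Ikzf1, the gene of the zinc finger factor Ikaros, ahead of GFP. Both groups therefore shared dissociation, transfection, culture and sorting, and Ikzf1 was added to cells that also carried their own copy. The labels call the replicates of each condition biological and do not say whether they came from separate litters. The deposited CUT&RUN data (5 libraries) were not used for these genes.

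In the newborn mouse retina, progenitors leaving the cell cycle form mostly rods, with some bipolar cells, amacrine cells and Müller glia, while cones are made before birth. Otx2, a homeodomain factor, is needed for photoreceptor fate and switches on Crx, its close relative, and Prdm1 (Blimp1), a zinc finger repressor that keeps new photoreceptor precursors from turning into bipolar cells. Rorb, an orphan nuclear receptor, acts upstream of Nrl, the leucine zipper factor that makes a precursor a rod, and Nrl in turn activates Nr2e3, the nuclear receptor that shuts off cone genes in rods. Mef2d works with Crx at photoreceptor genes, Samd7 is a Polycomb-associated repressor in rods, and Esrrb is a nuclear receptor that maintains rods.

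The start sites of the 3 factors with the smallest p-values (Prdm1, Crx and Nrl) are printed here with that of Samd7, the window with the most motif matches. The sequences are those of RefSeq on GRCm38.p6, from 250 bases before the annotated start to 50 bases after it, and capitals mark motif matches on either strand. The motifs searched were TAATCC (known for Crx and Otx2), TGGGAA (Ikaros), TGCTGA (Nrl), AGGTCA (Rorb and Esrrb) and GAAAGTG (Prdm1), and no matches overlapped. The windows lie at chr7:15879906-15880205 for Crx, chr10:44458699-44458998 for Prdm1, chr14:55524203-55524502 for Nrl (all minus strand) and chr3:30746043-30746342 for Samd7 (plus strand). The Prdm1 and Nrl windows lie wholly inside their genes as the comparison table places them.
Crx: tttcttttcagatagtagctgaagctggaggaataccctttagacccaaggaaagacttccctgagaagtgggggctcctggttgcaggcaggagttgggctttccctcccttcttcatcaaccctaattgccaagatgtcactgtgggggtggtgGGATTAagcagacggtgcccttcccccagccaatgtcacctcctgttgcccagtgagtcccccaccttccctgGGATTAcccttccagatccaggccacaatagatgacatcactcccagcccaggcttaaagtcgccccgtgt
Prdm1: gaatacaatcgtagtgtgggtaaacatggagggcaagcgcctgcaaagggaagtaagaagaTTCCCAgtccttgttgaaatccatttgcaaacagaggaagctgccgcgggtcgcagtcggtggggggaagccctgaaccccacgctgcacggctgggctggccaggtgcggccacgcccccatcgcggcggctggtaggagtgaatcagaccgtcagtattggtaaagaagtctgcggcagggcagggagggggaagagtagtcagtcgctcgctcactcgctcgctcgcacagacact
Nrl: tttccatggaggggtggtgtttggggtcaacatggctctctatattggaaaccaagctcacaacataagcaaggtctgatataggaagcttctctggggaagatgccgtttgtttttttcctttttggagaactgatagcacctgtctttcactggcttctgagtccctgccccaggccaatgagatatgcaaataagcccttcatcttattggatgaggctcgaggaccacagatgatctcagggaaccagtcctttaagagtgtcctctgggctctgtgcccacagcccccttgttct
Samd7: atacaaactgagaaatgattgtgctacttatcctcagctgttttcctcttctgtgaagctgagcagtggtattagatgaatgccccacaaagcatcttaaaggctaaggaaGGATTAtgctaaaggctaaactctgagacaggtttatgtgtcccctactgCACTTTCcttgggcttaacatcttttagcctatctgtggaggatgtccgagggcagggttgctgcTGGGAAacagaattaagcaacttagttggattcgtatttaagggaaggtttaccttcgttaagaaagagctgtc
The Crx window held TAATCC, read as GGATTA, at 2 places, -94 and -21 from the start, and Samd7 held it once, at -139. The Prdm1 window held the Ikaros letters once, at -189 as TTCCCA, and Samd7 held them at -24, beside the Prdm1 letters at -89. The Nrl window held none of the 5 motifs. RefSeq gave 14 windows for the 9 factors, since Otx2 has 4 and Rorb and Esrrb have 2 each. TAATCC was found for 3 factors (Otx2, Crx and Samd7), in 3 of 14 windows, against 7.06% of the 32851 windows in the table. TGGGAA was found for 4 (Prdm1, Rorb, Samd7 and Esrrb), in 4 of 14 windows against 25.6%. TGCTGA was found for 3 (Otx2, Rorb and Mef2d), in 4 of 14 against 19.5%. GAAAGTG was found in 1 window against 4.81%, and AGGTCA in 0 against 16.3%. A match in letters is a description of these windows, not a measured site.

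Depth ran from 21.4 to 30.5 M estimated read pairs per RNA library, and the first principal component (60.8% of the variance) separated the groups. Ikzf1 itself numbered 1617 to 2190 reads in the controls and 4034599 to 5222672 in the Ikzf1 libraries, a log2 fold change of 11.25 (SE, the standard error, 0.09; edgeR adjusted p = 1.18e-34), so every library matched its label. Ikzf1 reached 180317 TPM (salmon's transcript abundance, a level per length scaled to the same sum in every library) in the Ikzf1 libraries against 87.87 in the controls, and its share lowers the TPM of every other gene there. The labels call the cells retinal progenitor cells. All 14 progenitor markers were expressed, with Pax6 at 367.8 TPM, Ccnd1 at 234.8 and Rax at 193.7 in the controls, while the 9 photoreceptor factors and rod and cone genes were detected in the same RNA. With Ikzf1 set aside, the summed TPM of the progenitor list ran from 1724 to 1818 in the controls and from 1626 to 1703 in the Ikzf1 libraries. Of its 14 genes, 7 fell and 4 rose (median log2 fold change -0.23), with Pax6 at 0.32, Ccnd1 at -0.94 and Rax at -0.40. The Müller glia list ran from 2539 to 3000 and from 1524 to 1618, most of it from Vim (2165 and 836.6 TPM), and 5 of its 10 tested genes fell and 1 rose (median log2 fold change -0.34). Unlike the sums, the TPM of single genes here was not rescaled without Ikzf1. In the Ikzf1 libraries such values therefore lie on a lower scale than the sums. The retinal ganglion cell list ran from 448 to 469 and from 319 to 339, with 5 of 10 tested genes lower and 4 higher. The lower genes were led in level by Gap43 (199.1 and 98.86 TPM) and included Nefl (log2 fold change -2.64) and Nefm (-1.26). Among the higher genes were Sncg (3.01) and Pou4f1 (2.04). The amacrine and horizontal cell list ran from 192 to 221 and from 171 to 201, with 7 of 11 tested genes lower and 0 higher (median -0.34, and 1 higher with DESeq2). These counts used an edgeR adjusted p under 0.05, at which 29.9% of all tested genes were lower and 29.4% higher. No list was tested against those shares. The endothelial list ran from 141 to 160 and from 77.1 to 88.7, nearly all of it from Kdr (143.6 and 60.93 TPM), and its other 4 tested genes were under 4 TPM. The genes named here were chosen after their values were seen. Microglia (2.84 to 5.89 and 1.84 to 3.56), astrocyte (3.34 to 6.44 and 3.06 to 7.41), pigment epithelium (4.77 to 5.57 and 2.99 to 3.58) and lens lists (5.9 to 6.64 and 2.05 to 3.91) were low in both groups, and the authors' deposited table gave Rpe65 and Crygs a mean of 0. The part of these cell classes in the results below was not tested.

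Of the 9 photoreceptor factors, 7 were lower in the Ikzf1 libraries (Prdm1, Crx, Nrl, Nr2e3, Samd7, Otx2 and Rorb), 0 were higher, and Mef2d and Esrrb did not pass an edgeR adjusted p of 0.05. At that threshold 59.3% of all 15550 tested genes passed, 29.9% lower and 29.4% higher. Prdm1 and Crx fell by more than 1 on the log2 scale, a size that 6.39% of tested genes reached as a called fall. For the same 7 factors every Ikzf1 library lay below every control, a separation that 53.2% of all tested genes showed in either direction and 26.7% in this one. The median log2 fold change of the 9 was -0.45, beside 0.00 for all tested genes. In bulk RNA, fewer cells of a type and less RNA per cell cannot be told apart. When libraries were scaled by total counts alone, the median of all genes moved to -0.21, 49.8% of them were lower, and 8 of the 9 factors were lower, Mef2d included.

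**Figure D1:**
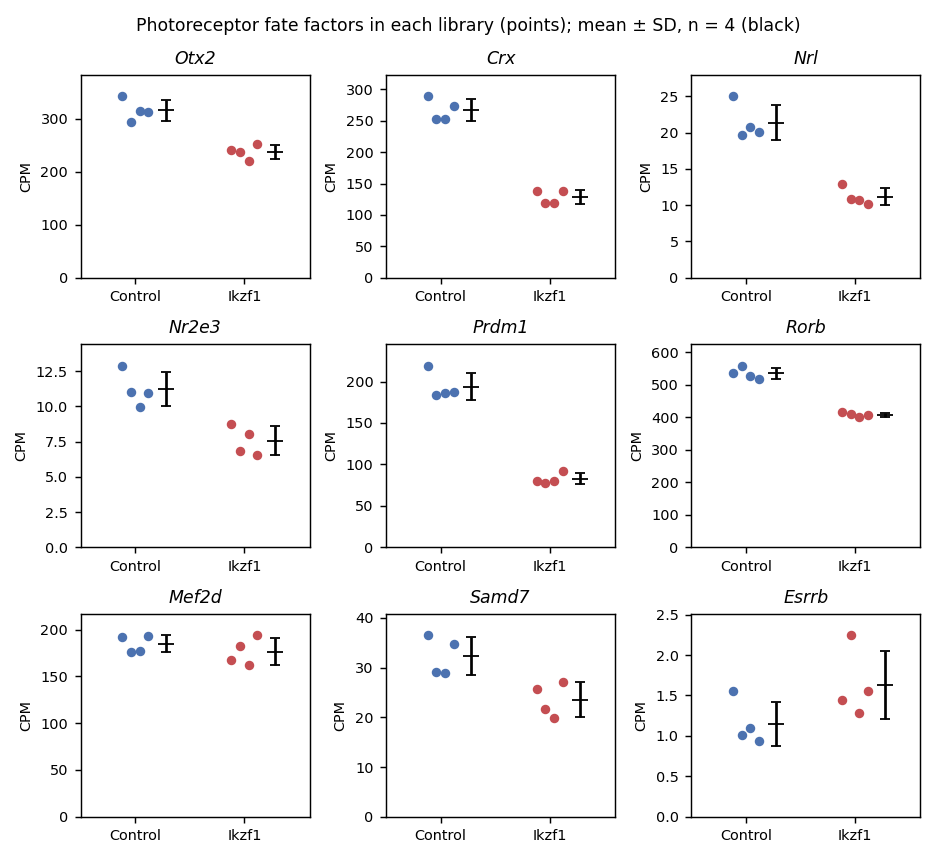
CPM (read counts scaled to library size, with TMM factors) of each photoreceptor factor in each of the 4 control (blue) and 4 Ikzf1 (red) libraries, with the mean ± SD of each group in black; every axis starts at 0. The red points lie below all blue points for the 7 factors that fell and mix with them for Mef2d and Esrrb.

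Otx2 (ENSMUSG00000021848, GRCm38 chromosome 14, 48657677 to 48673819, minus strand) stood at 342, 295, 315 and 312 CPM in control replicates 1 to 4 and at 241, 236, 220 and 252 CPM in Ikzf1 replicates 1 to 4. The groups did not overlap, and the highest Ikzf1 library was still below the lowest control. The mean went from 316.2 ± 19.68 to 237.4 ± 13.5 CPM (SD, n = 4 each), which is 75.1% of the control, with a log2 fold change of -0.41 (SE 0.05; edgeR adjusted p = 2.45e-08). A larger fall was seen in 19.8% of tested genes. Prdm1 (ENSMUSG00000038151, chromosome 10, 44437177 to 44528501, minus strand), whose product closes off the bipolar fate in new photoreceptors, stood at 219, 183, 186 and 187 CPM in the controls and at 79.99, 78.0, 79.5 and 92.6 CPM in the Ikzf1 libraries. Control replicate 1 and Ikzf1 replicate 4 lay above the rest of their groups, and the gap between the groups was wider than either spread. Its mean went from 194 ± 16.8 to 82.5 ± 6.75 CPM (SD, n = 4 each), 2.35-fold lower, with a log2 fold change of -1.23 (SE 0.06; edgeR adjusted p = 1.52e-12). Only 4.16% of tested genes fell further. Without any 1 library, the log2 fold change of Prdm1 stayed between -1.29 and -1.17.

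Crx, the homeodomain activator of photoreceptor genes, followed Prdm1 in size. Crx (ENSMUSG00000041578, chromosome 7, 15865947 to 15879968, minus strand) stood at 289, 253, 253 and 274 CPM in the controls and at 139, 119, 119 and 138 CPM in the Ikzf1 libraries. Each group was tight and the groups lay far apart. The mean went from 267.2 ± 17.8 to 128.7 ± 10.93 CPM (SD, n = 4 each), 48.2% of the control, with a log2 fold change of -1.05 (SE 0.06; edgeR adjusted p = 3.72e-13). A larger fall was seen in 6.03% of tested genes.

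**Figure D2:**
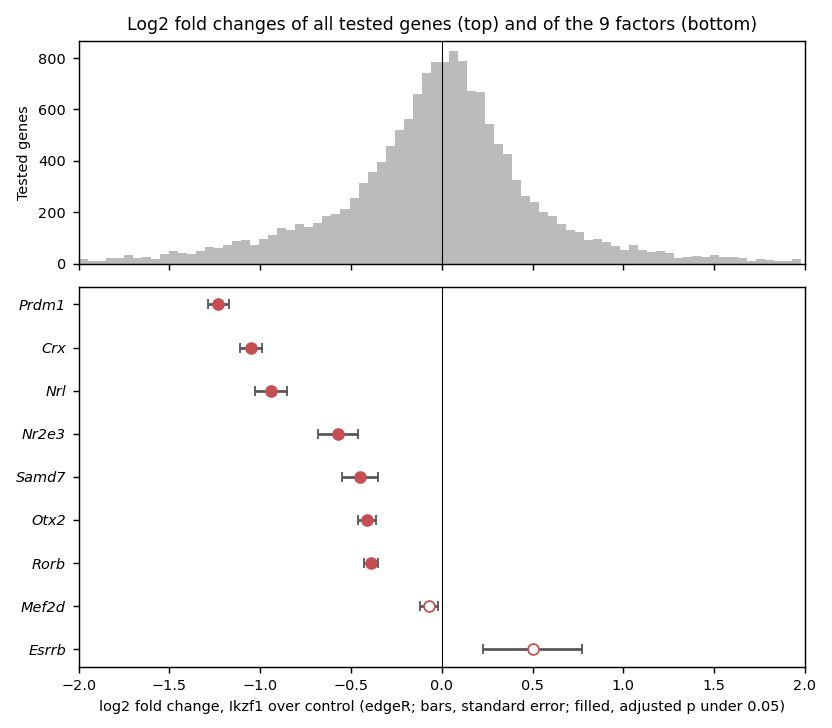
Log2 fold change, Ikzf1 over control, of all tested genes between -2 and 2 (histogram, top) and of the 9 factors (bottom; bars are standard errors, filled points passed an edgeR adjusted p of 0.05). Prdm1 (-1.23), Crx (-1.05) and Nrl (-0.94) lie in the left tail, Nr2e3, Samd7, Otx2 and Rorb between -0.57 and -0.39, and the open points of Mef2d and Esrrb near and right of 0.

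The rod factors Nrl and Nr2e3 were expressed at lower levels and also fell. Nrl (ENSMUSG00000040632, chromosome 14, 55518978 to 55524981, minus strand) stood at 25.0, 19.7, 20.8 and 20.1 CPM in the controls and at 12.97, 10.9, 10.8 and 10.1 CPM in the Ikzf1 libraries. Replicate 1 was the highest in both groups, and the groups did not overlap. The mean went from 21.4 ± 2.46 to 11.2 ± 1.23 CPM (SD, n = 4 each), 52.3% of the control, with a log2 fold change of -0.94 (SE 0.09; edgeR adjusted p = 9.05e-10). Nr2e3 (ENSMUSG00000032292, chromosome 9, 59942771 to 59960659, minus strand), which Nrl activates, stood at 12.9, 11.04, 9.99 and 10.96 CPM in the controls and at 8.76, 6.86, 8.05 and 6.56 CPM in the Ikzf1 libraries. Its groups came close to each other without overlapping, on 156 to 324 reads per library. The mean went from 11.2 ± 1.21 to 7.56 ± 1.03 CPM (SD, n = 4 each), 67.3% of the control, with a log2 fold change of -0.57 (SE 0.11; edgeR adjusted p = 7.05e-05).

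Rorb (ENSMUSG00000036192, chromosome 19, 18930605 to 19111196, minus strand) had the most reads of the 9 and the smallest of the 7 falls. It stood at 534, 558, 527 and 518 CPM in the controls and at 414, 408, 399 and 406 CPM in the Ikzf1 libraries. The 4 Ikzf1 libraries spanned a narrow range, all below the controls. The mean went from 534.3 ± 17.08 to 407 ± 6.32 CPM (SD, n = 4 each), 76.2% of the control, with a log2 fold change of -0.39 (SE 0.04; edgeR adjusted p = 3.41e-09). Samd7 (ENSMUSG00000051860, chromosome 3, 30746293 to 30767174, plus strand), the Polycomb-associated repressor, stood at 36.5, 29.1, 29.0 and 34.7 CPM in the controls and at 25.7, 21.6, 19.8 and 27.2 CPM in the Ikzf1 libraries. Replicates 1 and 4 were the higher pair in each group, and the highest Ikzf1 library was close below the lowest control. The mean went from 32.3 ± 3.86 to 23.6 ± 3.47 CPM (SD, n = 4 each), 73.1% of the control, with a log2 fold change of -0.45 (SE 0.10; edgeR adjusted p = 0.00149).

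Mef2d and Esrrb did not pass the threshold. Mef2d (ENSMUSG00000001419, chromosome 3, 88142372 to 88172086, plus strand), a MADS-box factor expressed in many tissues, stood at 192, 176, 177 and 193 CPM in the controls and at 167, 183, 162 and 194 CPM in the Ikzf1 libraries. The groups overlapped, and the highest value of all was Ikzf1 replicate 4. The log2 fold change was -0.07 with a 95% interval of -0.17 to 0.04 (edgeR adjusted p = 0.284), so a fall as large as that of Otx2 lay outside the interval. Without Ikzf1 replicate 4 it was -0.11 with an edgeR adjusted p of 0.0489, and with total counts it was -0.28 (edgeR adjusted p = 6.47e-05). Esrrb (ENSMUSG00000021255, chromosome 12, 86361117 to 86521628, plus strand) gave only 39, 23, 30 and 27 reads in the controls and 34, 51, 32 and 44 in the Ikzf1 libraries, 0.939 to 1.55 CPM and 1.28 to 2.24 CPM. Control replicate 1 lay within the range of the Ikzf1 libraries. The log2 fold change was 0.50 with a 95% interval of -0.03 to 1.04 (edgeR adjusted p = 0.112), and without control replicate 1 it was 0.68 (edgeR adjusted p = 0.0497). Leaving out 1 library thus moved each of these genes past the threshold.

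The authors' deposited table, made with DESeq2, called the same 7 factors lower and no other, where it called 41.8% of its 19121 genes with an adjusted p, 21% lower. The log2 fold changes of the authors' deposited table were -1.21 for Prdm1, -1.04 for Crx, -0.97 for Nrl, -0.60 for Nr2e3, -0.49 for Samd7, -0.41 for Otx2 and -0.37 for Rorb. For Mef2d the authors' deposited table gave -0.07 (adjusted p = 0.527) and for Esrrb 0.63 (adjusted p = 0.0788). Both analyses rest on the same reads. RefSeq places the noncoding genes Otx2os1, Gm7616, 1700113A16Rik, Gm33590 and Gm40483 across parts of Otx2, Nr2e3, Mef2d, Samd7 and Esrrb, and since the use of strand in counting is not given in the sources used here, shared reads could not be separated.

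The falls were compared within each library through the ratio of each factor to Otx2, in which library scaling cancels. The log2 ratio of Crx to Otx2 was -0.24, -0.22, -0.32 and -0.19 in the controls and -0.80, -0.99, -0.88 and -0.87 in the Ikzf1 libraries. Every Ikzf1 library was below every control, a difference of -0.64 (exact two-sided permutation p = 0.0286, the smallest that 4 against 4 libraries allow, and adjusted p = 0.0476 over 10 ratios). The ratio of Prdm1 to Otx2 fell by 0.82 on the log2 scale and that of Nrl to Otx2 fell by 0.52, each with the same exact p and adjusted p. In every Ikzf1 library Crx, Prdm1 and Nrl stood lower relative to Otx2 than in any control. The ratio of Mef2d to Otx2 rose by 0.34 and that of Esrrb to Otx2 by 0.92, with the same exact p and adjusted p. For Nr2e3 the difference was -0.16 (exact permutation p = 0.286, adjusted 0.357), for Samd7 -0.05 (exact permutation p = 0.6, adjusted 0.667) and for Rorb 0.02 (exact permutation p = 0.771), with overlapping groups. These p-values do not show that Nr2e3, Samd7 and Rorb fell by the same factor as Otx2. Taken from TPM or from the largest transcript of each gene, the differences that passed kept their sign, but their adjusted exact p rose to between 0.0571 and 0.154. The groups stayed fully apart in both for Crx, Prdm1, Nrl and Mef2d over Otx2, so their exact p before adjustment was unchanged.

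A further ratio set the rod factor Nrl against a gene of the cone fate. Thrb, the thyroid hormone receptor of cones, stood at 13.6, 17.3, 13.6 and 20.1 CPM in the controls and at 13.9, 16.4, 14.7 and 16.5 CPM in the Ikzf1 libraries, with a log2 fold change of -0.07 that did not pass (edgeR adjusted p = 0.596). Its groups overlapped, and its sign turned without control replicate 4 (0.05), under an offset for transcript length (0.16) and in the authors' deposited table (0.15). The log2 ratio of Nrl to Thrb was 0.88, 0.19, 0.61 and -0.01 in the controls and -0.09, -0.59, -0.44 and -0.71 in the Ikzf1 libraries. The Ikzf1 libraries all lay below the controls, by a narrow margin, with a difference of -0.88 (exact permutation p = 0.0286, adjusted 0.0476).

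**Figure D3:**
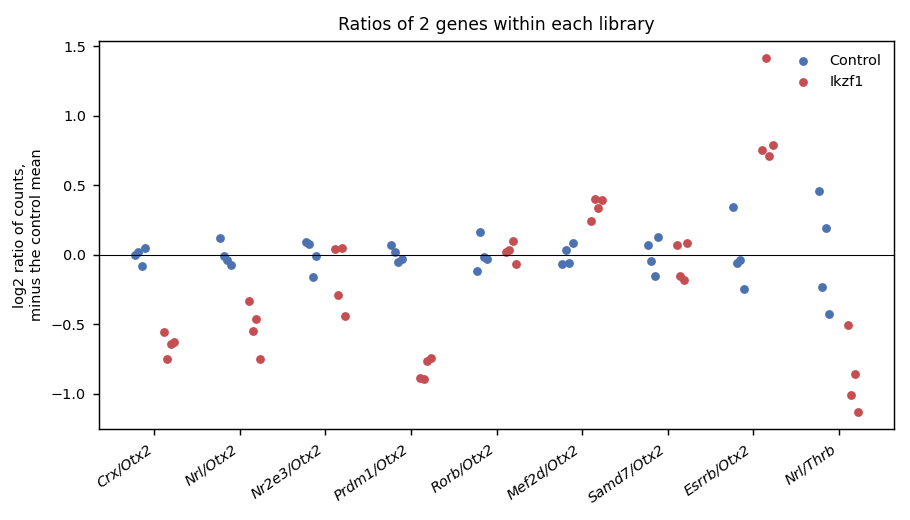
Log2 ratio of 2 genes within each library, shown relative to the control mean, for the 4 control (blue) and 4 Ikzf1 (red) libraries. Crx, Prdm1 and Nrl over Otx2 and Nrl over Thrb lie below all controls, Mef2d and Esrrb over Otx2 lie above them, and the other 3 ratios overlap.

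Levels between the factors can be compared only per transcript length, in TPM. In the controls the order was Otx2 at 345.6 ± 21.1, Crx at 208.6 ± 19.7, Rorb at 112.6 ± 3.91, Mef2d at 99.25 ± 4.7, Prdm1 at 78.72 ± 7.05, Nrl at 23.3 ± 2.74, Samd7 at 22.8 ± 2.90, Nr2e3 at 12.6 ± 2.25 and Esrrb at 0.584 ± 0.228 TPM (SD, n = 4). Nrl and Samd7 overlapped, and no other neighbours in that order did. Otx2 stood above 97.9% of the 16600 genes joined to transcripts in the controls and Esrrb above 10.5%. In the Ikzf1 libraries Otx2 still led at 222.1 ± 13.71 TPM. Crx (85.73 ± 8.22), Mef2d (80.44 ± 11.66) and Rorb (74.04 ± 2.17) followed (SD, n = 4). The range of Mef2d overlapped those of Crx and Rorb, while every Crx value (77.16 to 94.74 TPM) lay above every Rorb value (71.41 to 76.36 TPM). Crx had been 1.85 times the level of Rorb in the controls. Prdm1 came next at 28.9 ± 2.40 TPM, then Samd7 at 13.8 ± 2.13 and Nrl at 9.95 ± 1.961, which overlapped, Nr2e3 at 6.91 ± 0.687 and Esrrb at 0.859 ± 0.288 (SD, n = 4). With Ikzf1 left out and TPM rescaled, the Ikzf1 means were 271 for Otx2, 104.6 for Crx, 98.16 for Mef2d, 90.33 for Rorb and 35.22 for Prdm1, and the order within a library is unaffected. The median ratio of the Ikzf1 to the control level over the 9 factors was 0.604, and 0.737 after rescaling.

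**Figure D4:**
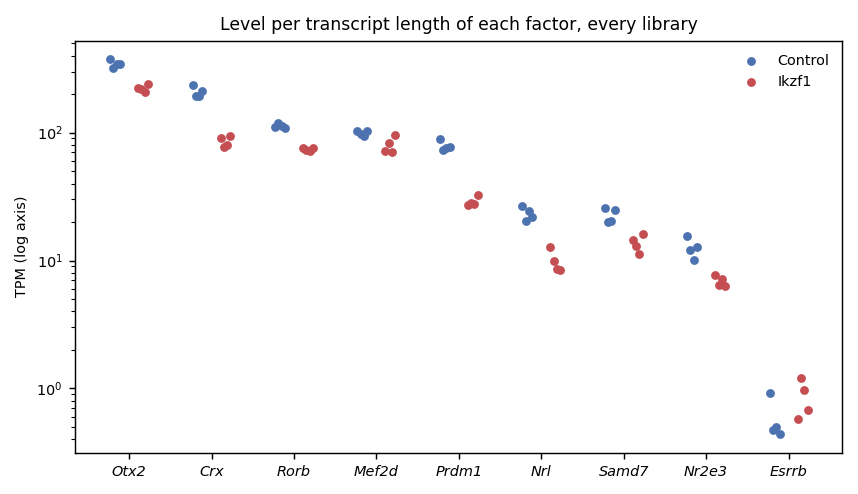
Level of each factor per transcript length (TPM, log axis) in the 4 control (blue) and 4 Ikzf1 (red) libraries, ordered by the control mean. Otx2 leads in both groups, and Crx, above Mef2d in the controls, overlaps it in the Ikzf1 libraries and lies just above Rorb.

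Most of the factors were carried by 1 transcript model. For Otx2 this was ENSMUST00000118578.8 (64.6% ± 1.75 of the control and 65.5% ± 2.65 of the Ikzf1 TPM), for Crx ENSMUST00000044434.12 (76.7% ± 3.88 and 78.7% ± 5.81) and for Nrl ENSMUST00000178694.2 (67.1% ± 3.59 and 66.7% ± 6.68, SD, n = 4 each). For these 3 genes the share of the leading transcript moved by less than its SD. Prdm1 was split between ENSMUST00000039174.10 (69.6% ± 1.69 and 68.6% ± 3.26) and ENSMUST00000105490.2 (26% ± 2.91 and 27.7% ± 3.73), and both models fell, from 54.8 to 19.8 TPM and from 20.5 to 8.02 TPM. Rorb came almost wholly from ENSMUST00000112832.7 (96.8% ± 0.667 and 94.5% ± 2.25), Nr2e3 mainly from ENSMUST00000034831.2 (72.4% ± 14.4 and 80.6% ± 11.4) and Samd7 from ENSMUST00000108262.9 (75.4% ± 4.97 and 83% ± 7.77, SD, n = 4 each). Mef2d used several models. ENSMUST00000001455.12 held 43.4% ± 1.17 of its TPM in control libraries and 48.2% ± 4.15 with Ikzf1, and ENSMUST00000119251.7 held 27.7% ± 2.19 and 23% ± 0.617 (SD, n = 4 each). The split of reads between models of 1 gene is an estimate, and the few reads of Esrrb give no usable split.

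Genes that work with the 9 factors moved in both directions. Beside each list stand the shares over all tested genes, 29.9% lower and 29.4% higher, and no list was tested against them. Of 14 partners and cofactors, 8 fell (57.1%) and 3 rose, with a median log2 fold change of -0.26. Nr1d1, the nuclear receptor Rev-erb alpha that acts with Nr2e3 in rods, went from 121.3 ± 3.14 to 10.3 ± 1.13 CPM (SD, n = 4 each; log2 fold change -3.56, edgeR adjusted p = 5.49e-26). Nr1d1 overlaps Thra on the other strand, which leaves part of its reads uncertain. Ctbp2, a corepressor that also gives the ribbon synapse protein RIBEYE, went from 134.7 to 84.3 CPM (log2 fold change -0.68). Sp4, a zinc finger factor that acts with Crx and Nrl, rose by 0.34, from 90.8 to 115 CPM, and Ring1, a Polycomb ubiquitin ligase subunit, by 0.34, from 27.4 to 34.7 CPM. With total counts Ring1 no longer passed (0.13, edgeR adjusted p = 0.0979).

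Of 16 family paralogs of the factors, 7 fell (43.8%, against 29.9% of all tested genes) and 7 rose, with a median of 0.05. Nr2e1, the closest relative of Nr2e3 and a regulator of progenitors, went from 51.3 to 29.1 CPM (log2 fold change -0.82, edgeR adjusted p = 2.29e-12), and Prdm8, a relative of Prdm1, from 26.8 to 14.6 CPM (-0.87). Mafa, a relative of Nrl among the large Maf genes, went the other way. It stood at 1.39, 0.701, 0.985 and 1.04 CPM in the controls and at 6.51, 7.79, 8.45 and 8.51 CPM in the Ikzf1 libraries (log2 fold change 2.91, edgeR adjusted p = 5.22e-14). Per length it stayed far under Otx2 and Crx, at 4.91 TPM in the Ikzf1 libraries.

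Upstream of the factors, 13 of 20 regulators fell (65%, against 29.9% of all tested genes) and 4 rose, with a median of -0.48. Notch1, the gene of the receptor that holds back photoreceptor fate, went from 519.7 ± 17.9 to 296.4 ± 20.8 CPM (SD, n = 4 each; log2 fold change -0.81, edgeR adjusted p = 1.57e-14). Its ligand gene Dll4 rose from 26.7 CPM by 0.82 on the log2 scale (edgeR adjusted p = 2.29e-11), and Hey1, a gene of the Notch-responsive repressor family, rose by 0.80 (edgeR adjusted p = 4.25e-10). The other genes of Notch signalling in the list went both ways. Dll1, another ligand gene, rose by 0.42 (edgeR adjusted p = 6.14e-08). Hes1 (-1.16, edgeR adjusted p = 3.93e-13) and Rbpj (-0.52) fell, while Hes5 did not pass (-0.10, edgeR adjusted p = 0.502). Of 12 cone fate factors, 5 fell (41.7%, against 29.9%) and 3 rose, with a median of -0.09. Casz1 was counted in this list although it is a zinc finger factor of late progenitors that favours rods. It fell by 0.87 on the log2 scale from 149.7 CPM (edgeR adjusted p = 8.5e-14). Lhx4, a LIM homeodomain factor of cones and bipolar cells, fell by 0.41. Sall3, which promotes cone genes, rose by 1.66 from 4.05 CPM (edgeR adjusted p = 2.26e-12), and Nr2f1, a nuclear receptor that patterns opsin expression, rose by 0.62. With total counts 8 of the 12 cone fate factors were lower, where 49.8% of all tested genes were.

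Downstream lie the phototransduction and outer segment genes that Crx, Nrl and Nr2e3 control. Of 35 rod target genes, 33 were tested, 19 fell (57.6%, against 29.9% of all tested genes) and 4 rose, with a median of -0.43. The progenitor, amacrine, ganglion cell and Müller glia lists had medians of -0.23, -0.34, -0.40 and -0.34. Prph2 and Rom1, which shape the rim of the outer segment discs, had log2 fold changes of -1.08 and -0.90, from control levels of 16.3 and 22.6 CPM (edgeR adjusted p = 1.31e-10 and 5.23e-10). Gngt1, the rod transducin gamma subunit, rose from 3.69 ± 0.485 to 14.3 ± 2.10 CPM (SD, n = 4 each; log2 fold change 1.95, edgeR adjusted p = 1.2e-13), and Cplx4, a complexin of the ribbon synapse, rose by 0.76 from 2.52 CPM. Of 12 cone target genes 10 were tested, 6 fell (60%, against 29.9%; 5 with DESeq2) and 0 rose, with a median of -0.48. Gnb3, the cone transducin beta subunit, went from 95.4 to 67.6 CPM (log2 fold change -0.50, edgeR adjusted p = 3.99e-05) and Cngb3, a cone channel subunit, from 7.62 to 4.93 CPM (-0.62). Of 17 bipolar cell genes 11 were tested, 4 fell (36.4%) and 4 rose, shares near the 29.9% and 29.4% of all tested genes, with a median of -0.02. The homeodomain gene Irx5 fell (-0.49, from 29.2 CPM), while Prkca, a kinase marking rod bipolar cells, rose from 20.6 to 32.1 CPM (0.64) and Car8 from 0.820 to 3.15 CPM (1.93).

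**Figure D5:**
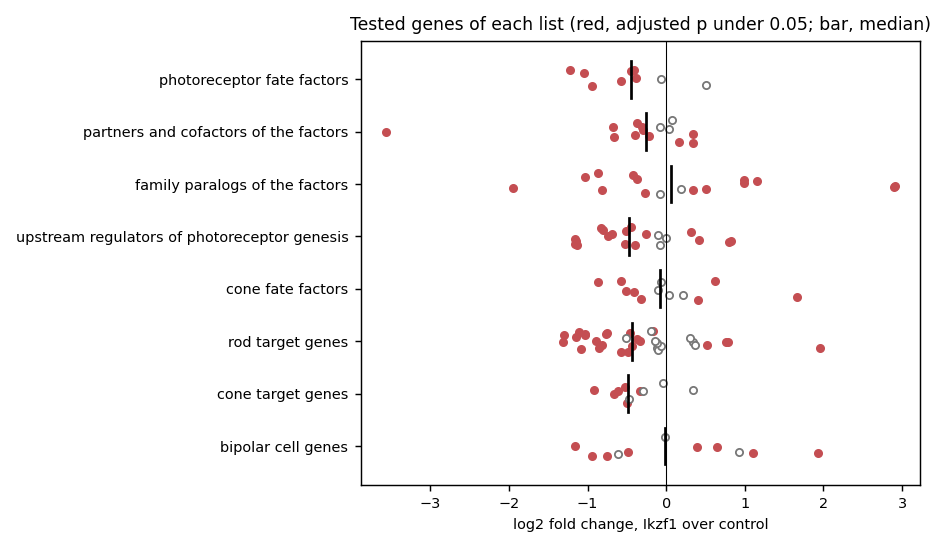
Log2 fold change, Ikzf1 over control, of each tested gene in the lists around the photoreceptor factors; red points passed an edgeR adjusted p of 0.05, open points did not, and the black bar is the list's median. Medians of the factors, the upstream regulators and the rod and cone target genes lie between -0.48 and -0.43, while those of the cone fate factors, paralogs and bipolar genes lie near 0.

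Some genes followed Prdm1, Crx and Nrl closely over the 8 libraries, measured as the root mean square difference of log2 CPM after each gene's control mean was set to 0. Nearest to Prdm1 were Slc27a3 (0.05), a fatty acid transport family gene, and Cacnb3 (0.07), a calcium channel subunit gene, which went from 10.5 to 4.55 CPM and from 46.5 to 19.96 CPM. Nearest to Crx were Tmem176a (0.06, from 43.2 to 21.3 CPM) and Ano2 (0.06, from 12.1 to 5.91 CPM), a chloride channel gene. Nearest to Nrl were Hus1 (0.06, from 42.8 to 22.6 CPM), a DNA damage checkpoint gene, and Lyn (0.07, from 8.01 to 4.23 CPM), a kinase gene. The measure rests mainly on the size of the difference between the groups.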

How the data were processed

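RNA was measured in 4 control and 4 Ikzf1 libraries, grouped by sample title. The authors deposited estimated counts of read pairs and TPM per transcript, made with salmon, per the labels. The authors' deposited comparison table, made with DESeq2 per the labels, gave a mean signal (normalised counts), log2 fold changes with standard errors, a Wald score and p-values per gene. Versions, annotation release and strand setting are not given in the sources used here. The deposited transcript files named no genes, so neighbouring transcripts were joined to the gene whose deposited mean their sum matched within a relative tolerance of 5e-09 (16600 of the 16815 genes whose mean reached 5, and 100% of joined genes right in a simulated table). The join used means, not fold changes.

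Summed estimated counts were rounded and tested with edgeR 4.0.16 (filterByExpr, TMM, robust quasi-likelihood F test, two-sided, Benjamini-Hochberg over all 15550 genes, threshold 0.05). CPM used TMM-scaled library sizes, and a standard error is the absolute log2 fold change over the square root of F. Ratios were tested by exact permutation over libraries. DESeq2 1.42.0, limma 3.58.1 (voom, and log2(TPM + 0.5) for genes of mean TPM at least 0.5), scalings, filters and left-out libraries were alternatives. The scripts were tested on simulated data. Libraries held 21.4 to 30.5 M read pairs, no 2 of which agreed within sampling noise. The factors and gene lists were chosen with earlier results of these data known, so their counts are not independent evidence. Named by rule were the 9 factors, Ikzf1, Thrb and, from each list, the 2 called genes of smallest p in each direction. The rule also named the 2 genes nearest to each of the 3 factors of smallest p. Pax6, Ccnd1 and Rax were named as markers. Vim, Gap43, Nefl, Nefm, Sncg, Pou4f1, Kdr, Dll1, Hes1, Rbpj and Hes5 were named after their values were seen. Of the 10 ratios tested and adjusted together 1 is not reported here, nor are some genes that this rule names. Promoter windows came from RefSeq (GRCm38.p6). Peak lists, on another build than the gene positions, were not analysed here.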

Additional observations from a re-analysis of the deposited data

Results flagged for a closer look

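Among 98 sets of 4 values, 7 held a library that stood apart from the rest, with a gap that took more of the set's range than Dixon's 95% limit allows. By chance about 1 set in 20 does so. Prdm1 had a far value in both groups, at 219 CPM in control replicate 1 against 183.3 to 187.2 in the other controls, and at 92.57 CPM in Ikzf1 replicate 4 against 78.01 to 79.99. Both far values were the highest of their group, and Prdm1 was lower in Ikzf1 without either library. The log2 ratio of Esrrb to Otx2 was -6.719 in Ikzf1 replicate 2 against -7.422 to -7.337, on 51 Esrrb reads. Among other genes, Nr2e1 was lowest in control replicate 3, at 45.66 CPM against 52.66 to 53.57, and Prph2 in control replicate 2, at 13.75 CPM against 17.02 to 17.4. Slc27a3 (11.89 CPM against 9.856 to 10.03) and Lyn (9.188 CPM against 7.476 to 7.709) were highest in control replicate 1.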

How the results depend on the processing

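The count of tested genes past the threshold (9219) stayed between 7859 and 10089 under 18 alternatives (8642 to 9037 with 1 library left out), and the factors called lower numbered 7 or 8 throughout. The 7 calls kept their direction and their side of the threshold in every alternative. Total counts gave 7741 lower and 2348 higher genes, and limma on log2(TPM + 0.5) gave 6925 and 1820, in place of 4651 and 4568. Neither setting corrects for the reads that Ikzf1 takes up in each Ikzf1 library, and their part in this shift was not tested. With limma on TPM, Mef2d was at -0.31 (adjusted p = 0.0107). The rises of Sp4 (0.05, limma adjusted p = 0.528), Ring1 (0.09, 0.257), Cplx4 (0.35, 0.0542) and Prkca (0.25, 0.161) no longer passed there. The replicate block gave 8902 calls and 7 factors lower and changed no factor's call. Same-numbered libraries did not deviate together over the tested genes (correlations -0.00127, -0.00345, -0.0204 and -0.0876). Such a correlation over all genes does not exclude a pairing by number. Total counts moved the cone fate factors called lower from 5 to 8. Rescaling without Ikzf1 moved the median level ratio to 0.737. Thrb turned to 0.16 with the length offset and ran from -0.15 to 0.05 with 1 library left out (0.05 without control replicate 4).

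From TPM, the log2 ratio differences no longer passed for Crx (-0.65), Nrl (-0.60), Prdm1 (-0.81), Mef2d (0.32) and Esrrb (1.20) over Otx2, each with an adjusted exact p of 0.0571, and Nrl over Thrb (-1.22, 0.0952). From the largest transcript they were Crx -0.63, Nrl -0.63, Prdm1 -0.85 and Mef2d 0.45 (adjusted exact p 0.0643) and Nrl over Thrb -0.93 (0.154), with Rorb -0.02 and Samd7 0.02 over Otx2 reversed; Esrrb gave no value there, since the transcript had libraries at 0. In both versions the ratios of Crx, Nrl, Prdm1 and Mef2d to Otx2 still separated the groups without overlap. Their exact p therefore stayed at the smallest value, 0.0286, as did that of Esrrb over Otx2 from TPM. Only the adjusted p rose, since it depends on how many ratios are tested and how many share that smallest value. Nrl over Thrb overlapped in both versions. The cause of the changes of sign was not tested. With 1 library left out the smallest exact p is 0.0571, so only values were compared. Ikzf1 has no value where it was left out of the table. Depth limits Esrrb, and counts do not show where in a cell mixture RNA was lost.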
